A study of Mus musculus with 29 samples.

Results

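The transcripts described here are those of 6 matrix metalloproteinases (Mmp2, Mmp3, Mmp9, Mmp12, Mmp13 and Mmp14) and 3 tissue inhibitors of metalloproteinases (Timp1, Timp2 and Timp3). They were chosen by gene symbol and make up 9 of the 28229 genes in the count table, which holds 24 genes of the Mmp and Timp families in all. All 29 mRNA libraries came from 1 cell line in culture, NMM, a melanoma line of the mouse with mutant NRAS. A first stimulus of 2, 6, 12 or 24 h was washed off and followed by a second one of 24 h. The stimuli were TGFβ (transforming growth factor beta, at 10 ng/ml), IFNγ (interferon gamma, at 100 ng/ml) or plain medium as the unstimulated control. Each of 7 sequences had 4 libraries, 1 per duration of the first stimulus. In 3 of them medium came first and was followed by medium, IFNγ or TGFβ; in 2 a cytokine was followed by medium; and in 2 one cytokine was followed by the other. A single library received medium for 24 h and then both cytokines as a mix. No label speaks of separate cultures, so the libraries of the 4 durations serve as replicates. The p-values of the comparisons reflect the spread left among them after a duration effect shared by all sequences, and this spread may be technical. Where a cytokine came first, it also holds differences in the length of that treatment.

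Matrix metalloproteinases are zinc-dependent enzymes that cut collagens, proteoglycans and other matrix proteins, and most are secreted as inactive precursors. Mmp14 is anchored in the cell membrane, where it activates the Mmp2 precursor with the help of the inhibitor Timp2. The inhibitors bind the active site of the enzymes, and in tumours the balance of enzymes and inhibitors is studied for its part in invasion.

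Library totals lay between 17179530 and 23668015 counts. Levels are in CPM, the count relative to the scaled library size, and changes are log2 fold changes with standard errors (SE) from edgeR's quasi-likelihood test, with p-values adjusted by Benjamini-Hochberg over 14935 genes and called below 0.05. All 9 genes passed the filter on low counts, which takes all sequences together. Mmp9 had 2 to 9 counts in the medium libraries and passed through others, mostly those with TGFβ. A gene could thus enter the tests through the groups in which it was high. Among 8 melanocyte markers, 4 had no row, Pmel and Sox10 stayed at or below 0.444 CPM, and Mitf and Gpnmb were detected at 8.40 to 20.2 and 26.4 to 276 CPM. Of 13 macrophage and leukocyte markers, Ptprc, Csf1r, Lyz2, Fcgr1 and Spi1 never exceeded 3 counts and 4 had no row, while Cd14 (17.1 to 76.4 CPM) made up most of a summed level of 21.6 to 82.8 CPM. The medium library of 6 h stood apart from the other 3 medium libraries. It held 456 CPM of Mmp2 against 247 to 279, 866 CPM of Mmp14 against 532 to 566, 496 CPM of Timp2 against 218 to 281, and 77.9 CPM of Timp1 against 119 to 142. Its summed level of fibroblast markers, mainly Col3a1 and Dcn, was 1945 CPM against 577 to 664, and the part of this difference in the results was not tested. In such bulk libraries, fewer cells of a type and less RNA per cell cannot be told apart. Comparisons of the 9 genes with medium are therefore given with and without that library where it matters. Changes of genes outside the 9 are given only with it.

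The 9 genes spanned a wide range of abundance. Per kb of exon sequence, Mmp3 (stromelysin-1, which cuts proteoglycans and activates other metalloproteinases) had the highest median over the 29 libraries, at 449 CPM per kb. Timp1 followed with 172 CPM per kb, then Mmp14 with 90.0, Mmp2 (gelatinase A) with 75.3 and Timp2 with 54.9 CPM per kb. The other 4 genes were low. Mmp13 (collagenase-3) had a median of 1.70 CPM per kb, Mmp12 (macrophage elastase) 0.973, Timp3 (an inhibitor that stays bound to the matrix) 0.436 and Mmp9 (gelatinase B) 0.142 CPM per kb. Mmp9 had 1 to 28 counts per library and reached 10 counts in 14 of 29 libraries, so its values carry wide counting error. The span between the lowest and the highest library was 82.7-fold for Mmp12, against 2.42-fold for Mmp3 and 2.61-fold for Mmp14.

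**Figure D1:**
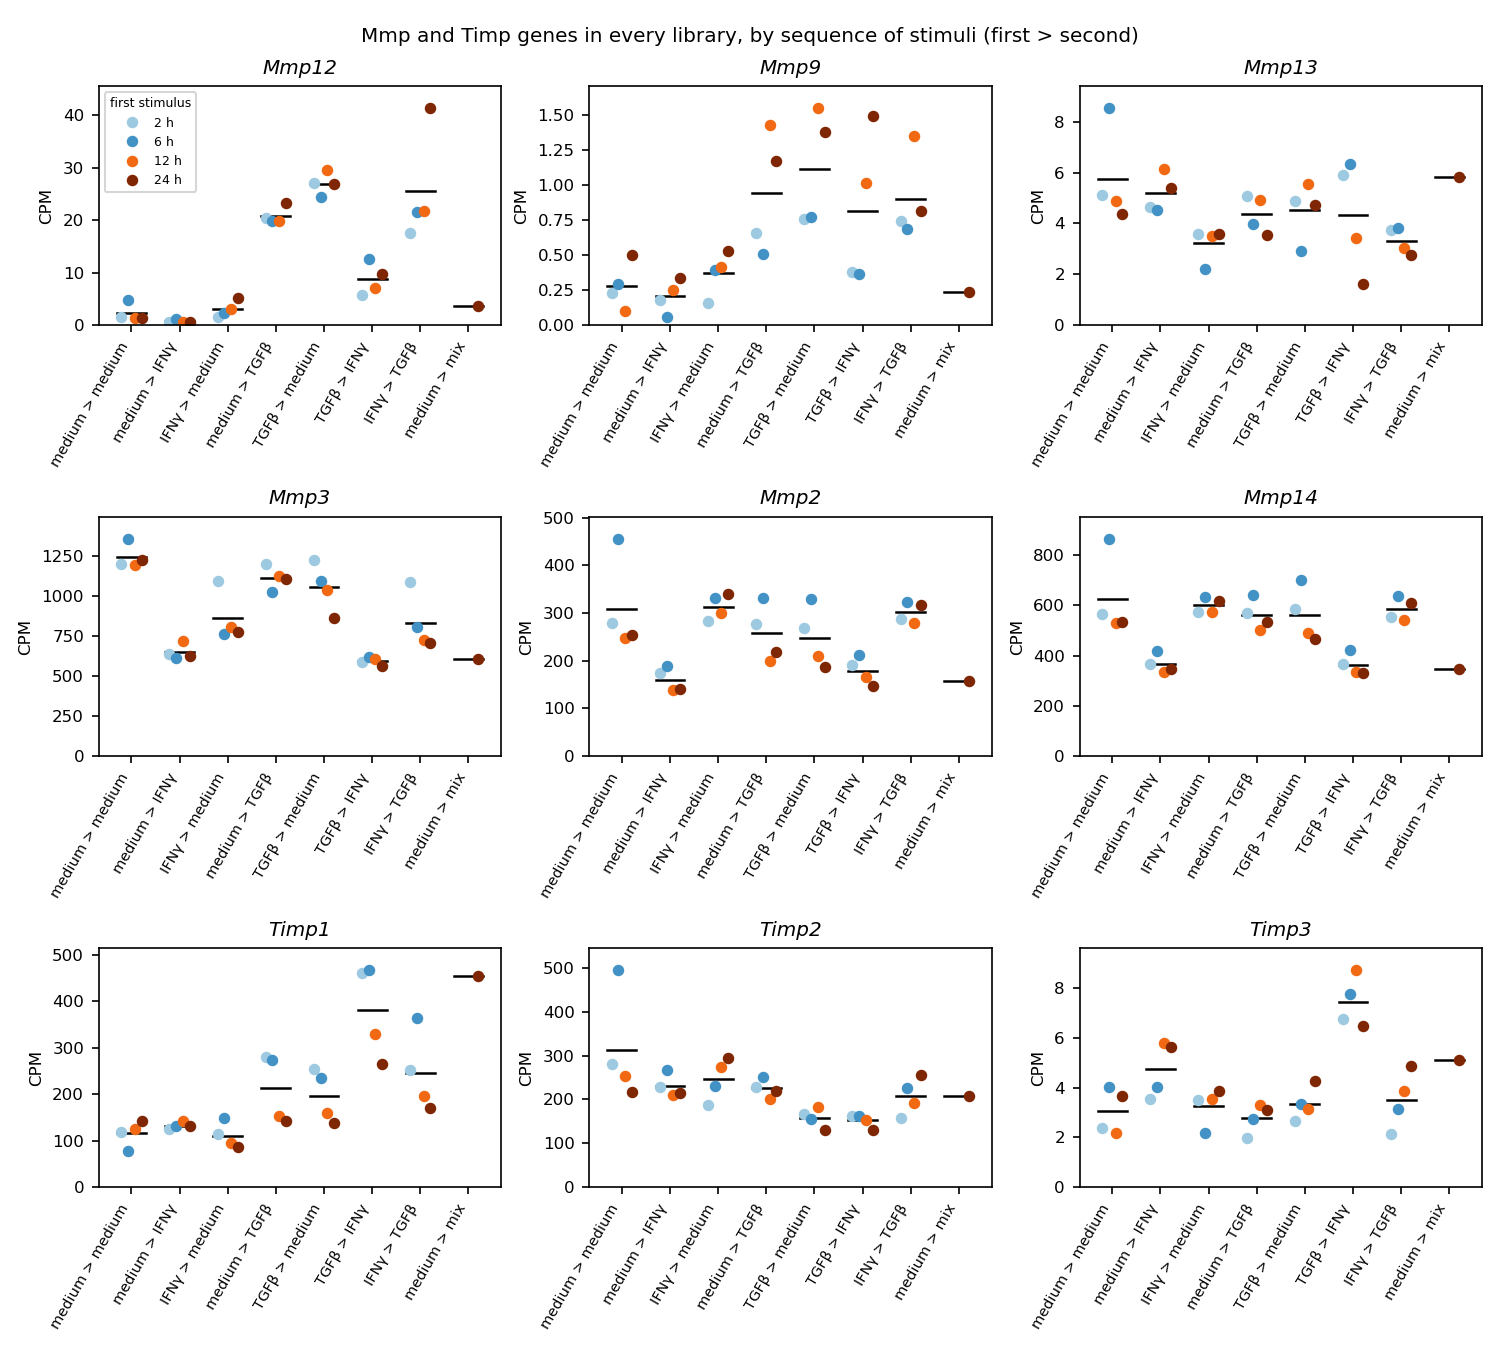
Level in CPM (vertical axes, from 0) of each of the 9 genes in all 29 libraries. Columns are sequences of first and second stimulus, points are single libraries coloured by the duration of the first stimulus, and horizontal lines are means. Mmp12 stands at 17.5 CPM or more in 12 libraries, all of which received TGFβ and ended in medium or TGFβ, and Timp1 is highest after TGFβ then IFNγ and in the mix library.

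On GRCm38, Mmp13 (chromosome 9, 7272514 to 7283331), Mmp12 (7344381 to 7369499) and Mmp3 (7445822 to 7455975) lie on the plus strand of 1 cluster of Mmp genes, which also holds Mmp1b, Mmp1a, Mmp10, Mmp8 and Mmp27. Mmp2 lies on chromosome 8 (92827291 to 92853420), Mmp9 on chromosome 2 (164940780 to 164955850) and Mmp14 on chromosome 14 (54431612 to 54445364), all on the plus strand. Timp1 lies on chromosome X (20870166 to 20874735, plus strand) and overlaps Syn1 on the other strand. Timp2 lies on chromosome 11 (118301069 to 118355740, minus strand), where it overlaps Cep295nl on the same strand, and Timp3 on chromosome 10 (86300372 to 86349506, plus strand). The annotated span of Mmp12 overlaps Mmp1b on the opposite strand, and the strand setting of the counting is not given. Mmp1b had 5.08 CPM after medium and 5.52 after medium then TGFβ, and did not follow the change of Mmp12. The part of the overlap in the counts of Mmp12 was not tested.

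RefSeq windows on GRCm38.p6, from 250 bases before to 50 after the start site, were at hand for 7 of the 9 genes, with 2 windows for Mmp12. They were searched on both strands for the motif of AP-1 (the Jun and Fos factors), TGANTCA. It was found in 1 window each of Mmp12, Mmp3 and Mmp13 and in none of Mmp14, Timp1, Timp2 or Timp3, against 7.81% of all 32851 windows. The 60 bases before the start site are shown for these 3 cluster neighbours, in which the motif was found. Among the 3, Mmp12 alone was called with TGFβ, as given further on (the difference in response was not tested). Capitals mark the AP-1 match, which begins 44, 46 and 35 bases before the respective start.
Mmp12 (second window, chr9:7347314-7347373, plus strand): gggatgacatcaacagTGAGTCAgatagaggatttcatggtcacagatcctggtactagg
Mmp3 (chr9:7445762-7445821, plus strand): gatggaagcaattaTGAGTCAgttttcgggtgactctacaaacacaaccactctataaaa
Mmp13 (chr9:7272454-7272513, plus strand): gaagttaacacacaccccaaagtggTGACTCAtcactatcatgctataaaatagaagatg
The same 3 windows, and none of the other windows of these genes, held the TATA box letters TATAAA, found in 13.6% of all windows. They begin at base 5 after the listed start for Mmp12, and 7 and 16 bases before it for Mmp3 and Mmp13. The distance from the AP-1 match to these letters thus differs between the 3 genes. The palindrome GTCTAGAC of the SMAD factors, found in 0.213% of all windows, was in none of the windows of these genes. The SMAD core CAGAC, present in 49.6% of all windows, occurred in the first Mmp12 window only. Windows of Mmp1b, Mmp1a and Mmp10 in the same cluster also held the AP-1 letters. With TGFβ, Mmp10 was called higher, Mmp1a lower and Mmp1b not, as given further on. A match describes the letters of the window and not a bound site.

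After TGFβ as the second stimulus, Mmp12, Mmp9 and Timp1 rose and none of the 9 genes was called lower. Mmp12, an enzyme best known from macrophages, stood at 1.51, 4.80, 1.28 and 1.27 CPM after medium alone at 2, 6, 12 and 24 h. After medium then TGFβ it stood at 20.4, 19.8, 19.9 and 23.2 CPM. The lowest TGFβ library was thus over 4 times the highest medium library, and the groups did not overlap. The log2 fold change was 3.28 ± 0.32 (SE, n = 4 and 4), with an adjusted p of 2.34e-07 in edgeR. Without the 6 h medium library the change of Mmp12 was 3.92, with an edgeR adjusted p of 1.19e-08. Of the 9 macrophage and leukocyte markers with a row, Ptprc, Csf1r, Lyz2, Fcgr1 and Spi1 were at or near 0, while Cd14, Cd68 (2.84 to 6.18 CPM over all libraries) and Mrc1 (0.404 to 6.44 CPM) were detected. With TGFβ the list summed to 27.4 to 59.7 CPM against 55.5 to 82.8 CPM in medium, and 1 of 3 tested genes was called lower and 0 higher.

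Markers of other cell types also differed between these groups. The melanocyte list summed to 61.1 to 96.2 CPM with TGFβ against 164 to 290 CPM in medium, with both tested genes, Mitf and Gpnmb, called lower. Cdh5, an endothelial cadherin and the 1 tested gene of its list, was called higher, at a mean of 21.0 against 10.6 CPM. The fibroblast list summed to 477 to 607 CPM against 577 to 1945 CPM, with 1 of 6 tested genes lower and a median change of -0.76. The part of these levels in the changes of Mmp12, Mmp9 and Timp1 was not tested.

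Mmp9, the second gelatinase, had 0.229, 0.289, 0.0987 and 0.498 CPM after medium and 0.653, 0.503, 1.43 and 1.17 CPM after medium then TGFβ. All 4 TGFβ libraries lay above all 4 medium libraries, by a narrow margin of 0.503 against 0.498 CPM. No medium library reached 10 counts, so Mmp9 passed the filter through other libraries. The change was 1.72 ± 0.37 on the log2 scale (edgeR adjusted p = 0.00164), and without the 12 h libraries of every sequence it was 1.18 with an adjusted p of 0.0646. Timp1, the secreted inhibitor that binds most metalloproteinases, had 119, 77.9, 124 and 142 CPM after medium. After medium then TGFβ it had 281, 273, 152 and 143 CPM, so that the high values came from the 2 and 6 h libraries while those of 12 and 24 h lay close to medium. The change of Timp1 was 0.77 ± 0.21 (edgeR adjusted p = 0.0110). It missed the threshold without the 2 h libraries of every sequence (0.61, adjusted p = 0.107) and without those of 6 h (0.50, adjusted p = 0.0649), and in a fit on the compared sequences alone (0.83, adjusted p = 0.133). Without the 6 h medium library by itself it was 0.52 with an adjusted p of 0.0391. Of all genes tested, 23.3% were called in this comparison, 11.7% higher and 11.6% lower, against 3 of the 9 genes, all higher. Mmp2 (-0.25, adjusted p = 0.128), Mmp3 (-0.16, 0.253), Mmp13 (-0.38, 0.351), Mmp14 (-0.14, 0.235) and Timp3 (-0.14, 0.688) were not called in edgeR, nor was Timp2 (-0.45, 0.0704). With the 24 h medium library left out, Timp2 was at -0.59 and passed (0.0230).

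The same 3 genes were higher 24 h after TGFβ had been washed away, in a comparison that shares the 4 medium libraries. After TGFβ then medium, Mmp12 stood at 27.1, 24.3, 29.6 and 26.8 CPM, above every medium library. Its change against medium was 3.67 ± 0.32 (edgeR adjusted p = 3.48e-08), which is a 12.7-fold higher level 24 h after the wash. The 2 h pulse, at 27.1 CPM, lay within the range of the longer ones, and without the 6 h medium library the change was 4.30. Mmp9 had 0.753, 0.767, 1.55 and 1.38 CPM and changed by 1.98 ± 0.36 (adjusted p = 0.000277). Timp1 had 255, 235, 159 and 138 CPM, with the 24 h library inside the range of medium, and changed by 0.67 ± 0.21 (adjusted p = 0.0196). The call did not hold when the 2 h library of medium (0.60, adjusted p = 0.0621), the 2 h library of TGFβ (0.58, 0.0661) or the 6 h library of medium (0.43, 0.0779) was left out, nor in a fit on the compared sequences alone (0.122).

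Timp2, the inhibitor that also takes part in Mmp2 activation, fell after a TGFβ pulse. It had 281, 496, 254 and 218 CPM in medium and 167, 155, 183 and 129 CPM after TGFβ then medium, without overlap. Timp2 fell by 0.95 on the log2 scale (SE 0.18, edgeR adjusted p = 0.000345), and without the 6 h medium library its adjusted p was 0.00155. In all, 29.0% of genes were called in this comparison, 14.5% higher and 14.5% lower, against 3 of the 9 genes higher and 1 lower. Mmp2 (-0.31, adjusted p = 0.0510) and Mmp3 (-0.25, adjusted p = 0.0615) lay just outside the threshold in edgeR, and DESeq2 called both, with adjusted p of 0.0325 and 0.0420. Each of the 2 also passed in edgeR without the 2 h medium library (0.0360 and 0.0196), and Mmp2 without the 2 h or the 6 h TGFβ library (0.0456 and 0.0433).

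Between TGFβ withdrawn and TGFβ still present, 0% of genes were called in edgeR, with 928 genes at an unadjusted p below 0.05, and DESeq2 called 31. None of the 9 genes was called by either tool, and 1, Timp2, had an unadjusted p below 0.05. Mmp12 was higher after withdrawal in all 4 durations, at 27.0 ± 2.14 against 20.8 ± 1.60 CPM (mean ± SD, n = 4 each), without overlap. The difference was 0.39 on the log2 scale with a 95% interval from -0.14 to 0.92 and an adjusted p of 0.865. For Timp2 it was -0.50, with an interval from -0.87 to -0.13 and an adjusted p of 0.558.

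With IFNγ as the second stimulus, the abundant enzymes Mmp3, Mmp2 and Mmp14 and the scarce Mmp12 fell, and Timp3 rose. Mmp3 had 1204, 1359, 1193 and 1224 CPM after medium and 640, 616, 718 and 627 CPM after medium then IFNγ. The groups lay far apart, and Mmp3 fell by 0.94 (SE 0.10, edgeR adjusted p = 1.41e-07), to 0.522 of the medium level. Mmp2 had 279, 456, 247 and 254 CPM after medium and 174, 189, 138 and 140 CPM after IFNγ. Mmp2 fell by 0.92 (SE 0.12, adjusted p = 1.65e-06), and its adjusted p was 6.44e-06 without the 6 h medium library. Mmp14, the membrane-bound activator, had 566, 866, 532 and 536 CPM after medium and 368, 417, 336 and 348 CPM after IFNγ. Mmp14 fell by 0.75 (SE 0.08, adjusted p = 1.36e-07), without overlap.

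Mmp12 had 0.622, 1.23, 0.507 and 0.500 CPM after IFNγ, from 9 to 22 counts per library, all below the lowest medium library. Mmp12 fell by 1.59 (SE 0.49, edgeR adjusted p = 0.0106), but without the 6 h medium library the change was -0.95 with an adjusted p of 0.131. Timp3 had 2.38, 4.04, 2.17 and 3.65 CPM after medium and 3.55, 4.03, 5.78 and 5.62 CPM after IFNγ, and the groups overlapped. Its change was 0.63 ± 0.20 (adjusted p = 0.0140). Timp3 was at 0.39 with an adjusted p of 0.202 without the 12 h libraries of every sequence. It was not called without the 12 h medium library (0.44, 0.0812) or the 12 h IFNγ library (0.54, 0.0549), nor in a fit on the compared sequences alone (0.0640). Timp1 (0.16, adjusted p = 0.576), Mmp13 (-0.13, 0.742) and Mmp9 (-0.42, 0.533) were not called. Timp2 was at -0.41 with an adjusted p of 0.0603, and it passed without the 12 h (0.0385) or the 24 h medium library (0.0149). Background was high here, with 43.8% of all genes called, 22.7% higher and 21.2% lower, against 1 of the 9 genes higher and 4 lower. The summed fibroblast markers moved with these enzymes, at 196 to 234 CPM after medium then IFNγ against 577 to 1945 CPM in medium. Col3a1 and Dcn made up most of that sum, while Col1a1, Col1a2, Lum and Acta2 stayed at or below 1.16 CPM in all libraries, and the part of these levels in the result was not tested.

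**Figure D2:**
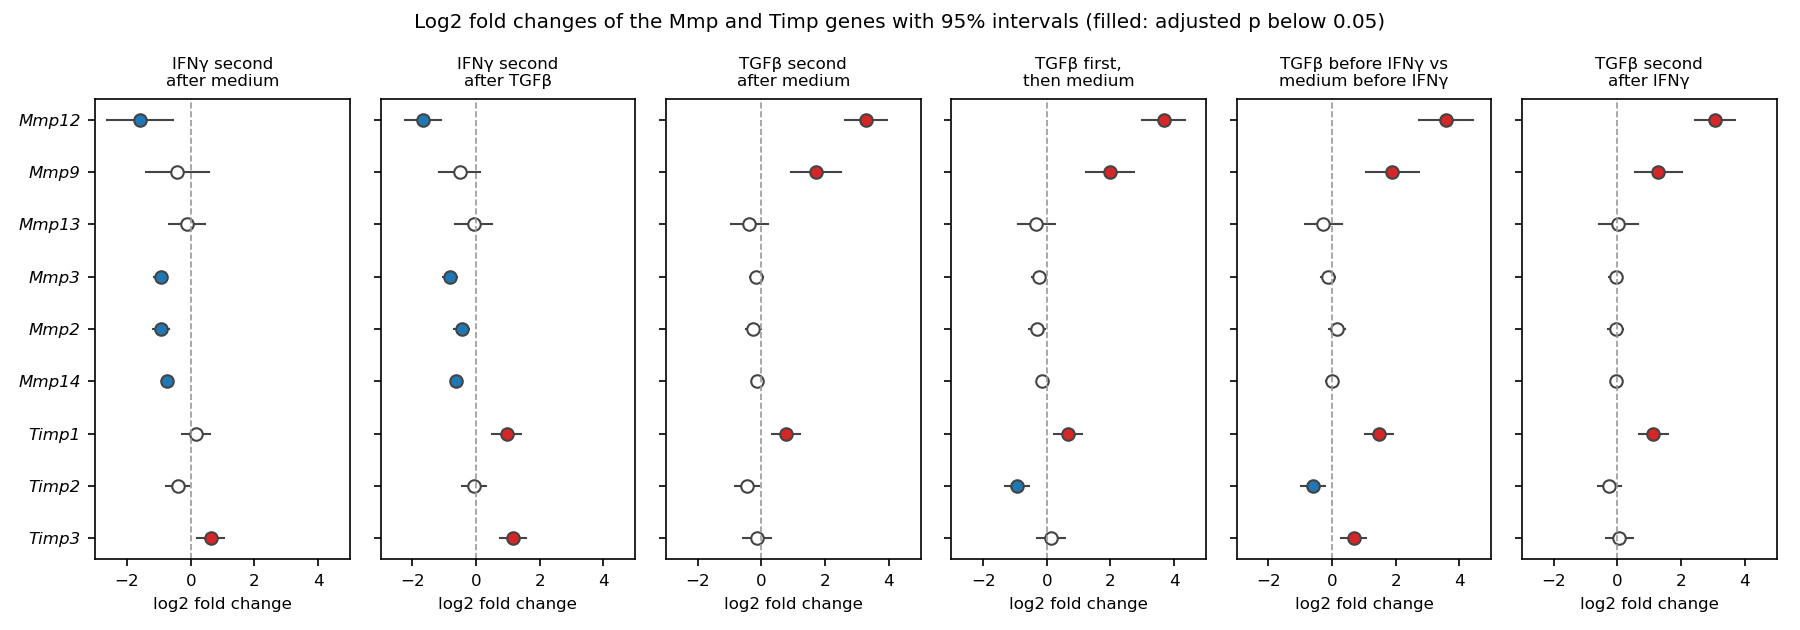
Log2 fold changes (horizontal axes) of the 9 genes in 6 comparisons, from edgeR over all 29 libraries. Points are estimates, lines are 95% intervals, and filled points have an adjusted p below 0.05 (red higher, blue lower). IFNγ lowers Mmp12, Mmp3, Mmp2 and Mmp14 after medium and after TGFβ, while TGFβ raises Mmp12, Mmp9 and Timp1 in all 4 of its comparisons. Some alternatives lost the calls of Mmp12 with IFNγ after medium and of Mmp2 with IFNγ after TGFβ. Others lost those of Timp1 with TGFβ first or second against medium, and of Mmp9 with TGFβ after medium or IFNγ.

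Mmp2 and Mmp14 were higher 24 h after IFNγ was withdrawn than with IFNγ still present. No library was taken at the end of the first stimulus, so the level at the end of the pulse is not known. After IFNγ then medium, Mmp2 had 284, 331, 300 and 339 CPM and Mmp14 had 573, 635, 575 and 619 CPM. These values lay within the range of medium only through its 6 h library, and above the other 3 medium libraries. Against medium, the edgeR change was 0.07 for Mmp2 (adjusted p = 0.815) and -0.03 for Mmp14 (0.884), and without that library 0.20 (0.426) and 0.08 (0.616). Against IFNγ still present, Mmp2 rose by 0.99 ± 0.12 (edgeR adjusted p = 8.39e-07), Mmp14 by 0.72 ± 0.08 (3.14e-07), Mmp12 by 2.07 ± 0.46 (0.000996) and Mmp3 by 0.39 ± 0.10 (0.00276). Timp3 fell by 0.52 (SE 0.20, adjusted p = 0.0416). That call on Timp3 was lost without the duration factor (0.0976). It was lost without the 6, 12 or 24 h libraries of every sequence (0.123, 0.163 and 0.112), and without any 1 of 6 libraries. These were the 2, 12 and 24 h libraries of medium then IFNγ (0.0523, 0.136 and 0.0843) and the 6, 12 and 24 h libraries of IFNγ then medium (0.169, 0.0783 and 0.0793). Of all genes, 41.6% were called, 20.8% higher and 20.8% lower, against 4 of the 9 genes higher and 1 lower. The summed fibroblast markers were at 602 to 885 CPM after IFNγ then medium, against 196 to 234 CPM with IFNγ present. Mmp13 was lower after withdrawal in all 4 durations (-0.68, adjusted p = 0.0584) and was called by DESeq2 (0.0447). Mmp13 also passed in edgeR without the 2 h library of medium then IFNγ (0.0491) or the 24 h library of IFNγ then medium (0.0381).

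Against medium alone, an IFNγ pulse left 1 called gene among the 9, Mmp3, at a background of 0.790% of genes. Mmp3 had 1097, 763, 807 and 775 CPM after IFNγ then medium, all below the lowest medium library of 1193 CPM. The 2 h pulse stood nearest to medium. Mmp3 fell by 0.55 (SE 0.10, edgeR adjusted p = 0.0172). The fold change of Mmp3 was -0.45 to -0.70 in the alternatives. Its adjusted p was 0.122 without the 6 h and 0.0531 without the 12 h library of IFNγ then medium. Without the 6, 12 or 24 h libraries of every sequence it was 0.186, 0.220 and 0.0936. It was 0.137 without the duration factor and 0.643 in a fit on the compared sequences alone. Mmp13 was also lower at all 4 durations, at 3.57, 2.22, 3.49 and 3.59 CPM against 5.12, 8.55, 4.88 and 4.37 CPM in medium. Those groups did not overlap, but the change of -0.80 ± 0.28 was not called (adjusted p = 0.157).

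Mmp3 was also low after IFNγ then TGFβ, with 1091, 809, 725 and 704 CPM against 1202, 1024, 1126 and 1106 CPM after medium then TGFβ. That difference was -0.43 ± 0.10 with an adjusted p of 0.0650 in edgeR and 0.00606 in DESeq2, and the edgeR value was 0.0243 without the 2 h library of IFNγ then TGFβ. No other of the 9 genes was called for IFNγ before TGFβ by either tool, 2 of the 9 had an unadjusted p below 0.05 in edgeR, and 0.0937% of genes were called.

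Cells that had seen TGFβ before IFNγ had more Mmp12 than cells that had seen medium before IFNγ. Its levels were 5.80, 12.5, 7.04 and 9.68 CPM, all above medium then IFNγ (at most 1.23 CPM) and all below TGFβ then medium (at least 24.3 CPM). Against medium then IFNγ, Mmp12 rose by 3.59 ± 0.40 (edgeR adjusted p = 1.00e-06). Against TGFβ then medium it fell by 1.67 (SE 0.27, adjusted p = 4.67e-05). The intermediate level was thus separated from both neighbours in the order of group means. Mmp9 had 0.379, 0.366, 1.01 and 1.49 CPM and rose by 1.88 ± 0.40 against medium then IFNγ (adjusted p = 0.00203), whereas against TGFβ then medium its change was -0.52 with an adjusted p of 0.200.

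Timp1 reached its highest level among the 4-library sequences after TGFβ then IFNγ, at 462, 468, 330 and 264 CPM. After medium then IFNγ it had 124, 131, 142 and 132 CPM. Every library of the first group was above every library of the second, and Timp1 rose by 1.47 ± 0.21 (edgeR adjusted p = 3.49e-05). Against TGFβ then medium it rose by 0.96 ± 0.21 (adjusted p = 0.00109), without overlap. The effect of IFNγ on Timp1 was thus 0.16 after medium and 0.96 after TGFβ. The interaction was 0.80 with a 95% interval from 0.17 to 1.42 and did not pass over all genes (edgeR adjusted p = 0.265). Without the 6 h medium library it was 1.03 with an adjusted p of 0.0454. Among all genes 0.395% were called for this interaction. None of the 9 was called in edgeR or DESeq2, and 2 had an unadjusted p below 0.05, Timp1 and Mmp2 (0.47, adjusted p = 0.240).

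Timp3 was likewise highest after TGFβ then IFNγ, at 6.77, 7.77, 8.74 and 6.47 CPM, above all libraries of every other sequence. Against TGFβ then medium, with 2.66, 3.35, 3.15 and 4.25 CPM, Timp3 rose by 1.17 ± 0.19 (edgeR adjusted p = 6.62e-05). Against medium then IFNγ it rose by 0.67 ± 0.19 (adjusted p = 0.0153). That call was lost without the duration factor (0.0838) and without the 2, 6 or 12 h libraries of every sequence (0.0988, 0.0522 and 0.0610). It was also lost without the 6 h library of medium then IFNγ (0.0535) or the 12 h library of TGFβ then IFNγ (0.0558). Timp2 had 163, 163, 154 and 129 CPM, below all 4 libraries of medium then IFNγ, which held 229, 267, 211 and 214 CPM. Timp2 fell by 0.59 (SE 0.18, adjusted p = 0.0233). Without the 2, 12 or 24 h libraries of every sequence its adjusted p was 0.0639, 0.0911 and 0.0515. The adjusted p was 0.0660 and 0.0505 without the 2 or the 6 h library of medium then IFNγ, and 0.0660 and 0.0797 without the 6 or the 24 h library of TGFβ then IFNγ. Of all genes 15.8% were called for TGFβ against medium before IFNγ, 8.64% higher and 7.19% lower, against 4 of the 9 genes higher and 1 lower.

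IFNγ still lowered the 3 abundant enzymes in cells that had seen TGFβ. After TGFβ then IFNγ, Mmp3 had 591, 621, 604 and 562 CPM, Mmp14 had 366, 422, 333 and 332 CPM and Mmp2 had 190, 213, 165 and 147 CPM. The first 2 were below every library of TGFβ then medium, while the ranges of Mmp2 overlapped. Mmp3 fell by 0.82 (SE 0.10, edgeR adjusted p = 1.31e-06), Mmp14 by 0.62 (SE 0.08, 2.67e-06) and Mmp2 by 0.46 (SE 0.12, 0.00379). For Mmp2 the adjusted p was 0.0621 without the duration factor. In this comparison 36.4% of all genes were called, 18.8% higher and 17.6% lower, against 2 of the 9 genes higher and 4 lower. The summed fibroblast markers were at 150 to 201 CPM after TGFβ then IFNγ, against 357 to 684 CPM after TGFβ then medium.

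TGFβ given after IFNγ raised Mmp12, Timp1 and Mmp9. Mmp12 had 17.5, 21.6, 21.8 and 41.4 CPM after IFNγ then TGFβ against 1.57, 2.28, 3.12 and 5.12 CPM after IFNγ then medium. In both groups the 24 h library was the highest and the 2 h library the lowest, and the groups did not overlap. Mmp12 rose by 3.06 ± 0.30 (edgeR adjusted p = 3.60e-07). Timp1 had 252, 363, 195 and 170 CPM against 114, 149, 94.4 and 85.4 CPM, and rose by 1.13 ± 0.21 (adjusted p = 0.00125). Mmp9 had 0.743, 0.687, 1.35 and 0.811 CPM against 0.157, 0.389, 0.416 and 0.527 CPM, and rose by 1.28 ± 0.35 (adjusted p = 0.0249). For Mmp9 the adjusted p was 0.210 without the duration factor. It was 0.217 without the 2 h and 0.168 without the 12 h libraries of every sequence. It was 0.0702 to 0.104 without any 1 of 6 libraries. These were the 2, 12 and 24 h libraries of IFNγ then medium and the 2, 6 and 12 h libraries of IFNγ then TGFβ. At a background of 7.26% of genes called, 3.62% higher and 3.64% lower, 3 of the 9 genes were higher and 0 lower, and 3 had an unadjusted p below 0.05. The interaction of TGFβ with a preceding IFNγ pulse was called for 0% of genes in edgeR (1078 genes had an unadjusted p below 0.05) and for 3 genes in DESeq2, and none of the 9 had an unadjusted p below 0.05 there.

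Between the 2 orders of the cytokines, 6 of the 9 genes were called. These sequences also differ in the cytokine present for the last 24 h, which this comparison cannot tell apart from order. With IFNγ last, TGFβ against medium before it gave no call in Mmp2 (0.16, edgeR adjusted p = 0.397), Mmp3 (-0.13, 0.415) or Mmp14 (-0.017, 0.925). Mmp12, Timp1 and Timp3 were called there, as given above. TGFβ then IFNγ was lower than IFNγ then TGFβ in Mmp12 (-1.53 ± 0.27, edgeR adjusted p = 0.000149), Mmp2 (-0.77 ± 0.12, 3.13e-05), Mmp14 (-0.69 ± 0.08, 7.95e-07) and Mmp3 (-0.47 ± 0.10, 0.000835). It was higher in Timp3 (1.13 ± 0.19, 0.000112) and in Timp1 (0.65 ± 0.21, 0.0208). For Timp1 all 4 durations were higher but the ranges overlapped. Without the 2 or the 12 h libraries of every sequence its adjusted p was 0.122 and 0.111. Its adjusted p was 0.0788 without the duration factor and 0.0592 to 0.0705 without any 1 of 5 libraries, those of 2 and 6 h of TGFβ then IFNγ and of 2, 12 and 24 h of IFNγ then TGFβ. Timp2 was at -0.45 with an adjusted p of 0.0561, and 0.0496 or 0.0326 without the 2 h library of the first or of the second sequence. Of all genes 32.5% were called, 16.4% higher and 16.2% lower, against 2 of the 9 genes higher and 4 lower. The summed fibroblast markers were at 150 to 201 CPM after TGFβ then IFNγ, against 498 to 668 CPM in the reverse order, with 4 of 6 tested genes lower (median -1.14), and their part in the result was not tested.

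**Figure D3:**
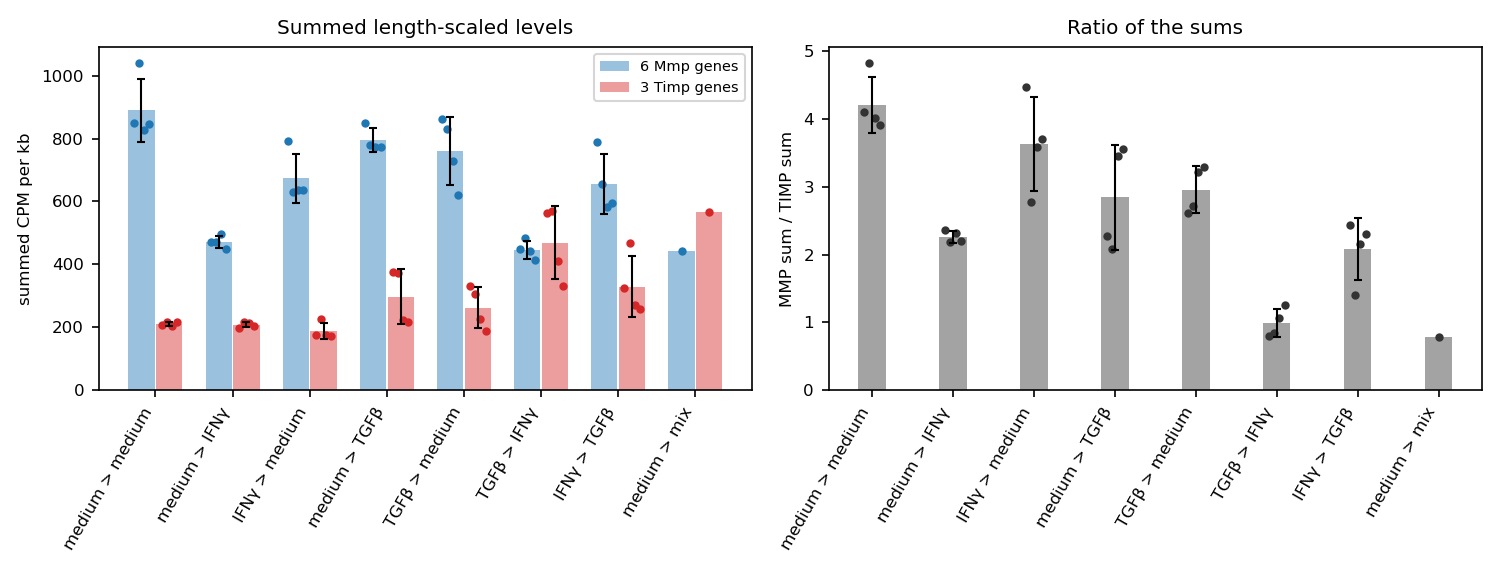
Left, summed level of the 6 Mmp and of the 3 Timp genes in CPM per kb of exon sequence. Right, the ratio of the 2 sums. Bars are means, error bars are SD over 4 libraries, points are libraries, and the mix has 1 library and no error bar; the ratio falls from 4.21 in medium to 0.991 after TGFβ then IFNγ.

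Transcripts were summed per kb of exon sequence. Those of the 6 enzymes stood at 4.21 ± 0.41 times those of the 3 inhibitors after medium (mean ± SD, n = 4). This ratio was 4.82 in the 6 h medium library and 3.91 to 4.10 in the other medium libraries. The ratio was 3.64 ± 0.69 after IFNγ then medium, 2.96 ± 0.34 after TGFβ then medium and 2.84 ± 0.77 after medium then TGFβ. It was 2.26 ± 0.09 after medium then IFNγ and 2.07 ± 0.46 after IFNγ then TGFβ. After TGFβ then IFNγ it was 0.991 ± 0.208, between 0.797 and 1.25, the one sequence of 4 libraries whose range lay below all the others. Mmp3 made up most of the enzyme sum, from 70.1% to 77.9% of it as group means. Timp1 made up 61.9% of the inhibitor sum after medium and 91.2% after TGFβ then IFNγ. The medium share was 40.7% in the 6 h library and 65.0% to 74.0% in the others. With IFNγ second the enzyme sum went from 890 to 472 CPM per kb while the inhibitor sum was 211 and 209 CPM per kb. In medium the enzyme sum was 1039 CPM per kb in the 6 h library and 827 to 848 in the others. With TGFβ second the inhibitor sum was 297 CPM per kb and the enzyme sum 794. These sums describe transcripts, not enzyme activity, and carry no test.

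The mix library joined the low enzymes of IFNγ to the high Timp1 of TGFβ then IFNγ, with no replicate. Timp1 stood at 454 CPM, within the range of TGFβ then IFNγ and above all other sequences. The 24 h library of TGFβ then IFNγ, which matches the mix in the duration of the first stimulus, held 264 CPM. Mmp3 (606 CPM), Mmp14 (345 CPM) and Mmp2 (158 CPM) were within the ranges of medium then IFNγ or of TGFβ then IFNγ. Mmp12, at 3.59 CPM, was below all libraries of TGFβ then IFNγ and above all of medium then IFNγ. Mmp9 had 5 counts and 0.236 CPM, Timp3 5.10, Timp2 207 and Mmp13 5.81 CPM. The ratio of the sums was 0.787.

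The duration of the first stimulus gave no called slope for any of the 9 genes in the edgeR trend model, in which a slope is a change per doubling of the hours. Genes called were 1.33% for TGFβ then medium, 0.208% for TGFβ then IFNγ, 0.00670% for IFNγ then TGFβ and 0% for IFNγ then medium, where 854 genes had an unadjusted p below 0.05 and DESeq2 called 0. Unadjusted p-values below 0.05 were held by 2, 3, 3 and 2 of the 9 genes in that order. DESeq2 called 1 of them, Mmp13 after TGFβ then IFNγ (-0.50, adjusted p = 0.0375), which had 5.90, 6.35, 3.44 and 1.60 CPM. The gain of Mmp12 from 1.57 to 5.12 CPM over IFNγ pulses of 2 to 24 h had a slope of 0.48 ± 0.19 and an adjusted p of 0.824. Mmp3 had slopes of -0.13 ± 0.04 after IFNγ then medium (0.824) and -0.18 ± 0.04 after IFNγ then TGFβ (0.722). The 2 and 6 h libraries also differed from those of 12 and 24 h where the first stimulus was only medium. Timp1 after medium then TGFβ was 277 CPM on average at 2 and 6 h and 148 CPM at 12 and 24 h, and Mmp9 was 0.578 and 1.30 CPM. In these libraries the time in TGFβ was 24 h throughout, and what else differed between durations was not tested.

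**Figure D4:**
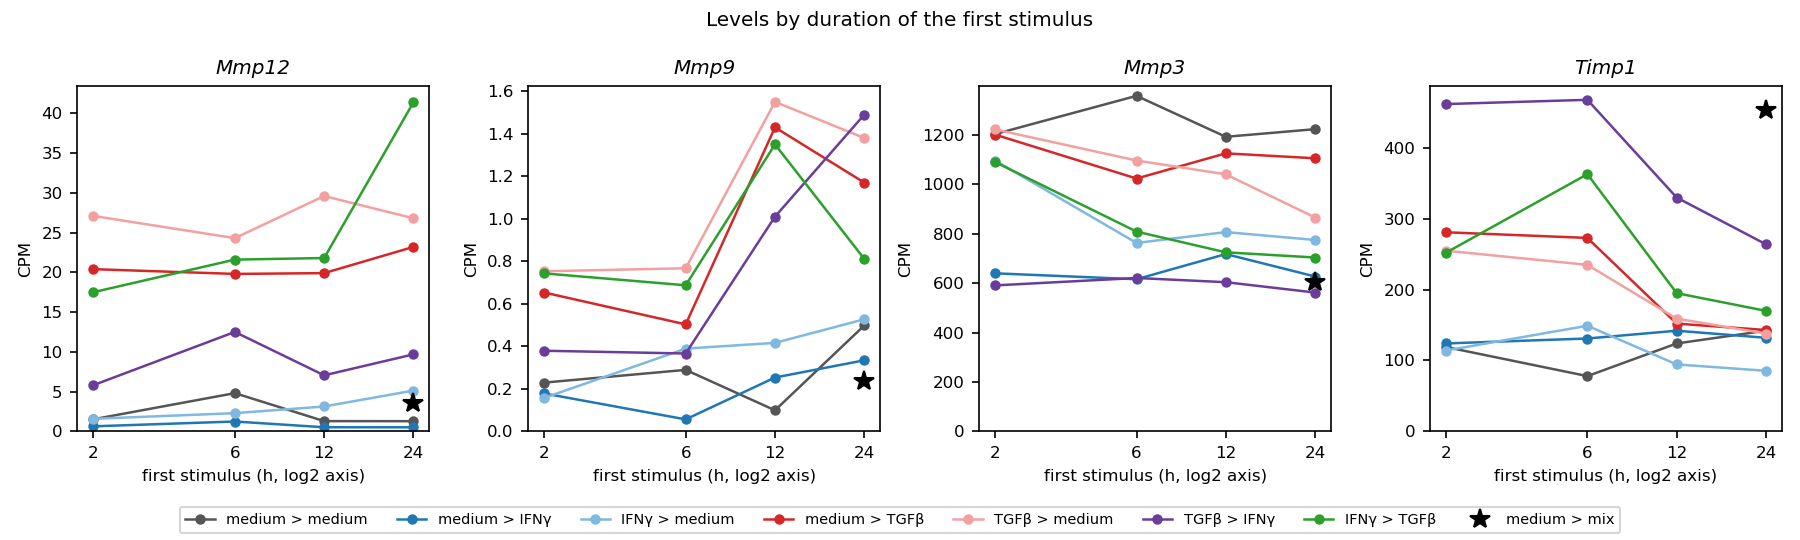
Level in CPM of Mmp12, Mmp9, Mmp3 and Timp1 against the hours of the first stimulus (log2 axis), with 1 line per sequence, 1 library per point and a star for the mix library. Timp1 is lower at 12 than at 6 h in the 4 sequences that contain TGFβ and in IFNγ then medium (149 and 94.4 CPM).

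Likeness across the 29 libraries was highest within the family for Mmp2 and Mmp14, at a Pearson r of 0.962 on log2 CPM. The 3 genes most like Mmp2 were Dcn (0.980), Mmp14 and Mxd4 (0.956), and those most like Mmp14 were Syt13 (0.972), Mmp2 and Trib2 (0.961). Mmp12 and Mmp9, which share the rise with TGFβ, had an r of 0.785. The genes most like Mmp12 were Whrn (0.966), Ndfip1 (0.962) and Aplp2 (0.956). Those most like Mmp9 were Adgrl3 (0.926), Ppip5k2 (0.918) and Galnt1 (0.909). Mmp3 was most like Oxtr (0.902), Sparc (0.898) and Serpinf1 (0.890), and against Mmp14 it had an r of 0.719. Mmp13 had no close partner, with Atf2 at 0.698, Atf5 at 0.662 and Dyrk2 at 0.653. Timp1 was nearest to Arid5a (0.905), Abhd17c (0.899) and Tcim (0.898), Timp2 to Ei24 (0.905), and Timp3 to Ube2d3 (0.837), Rnf19a (0.821) and Agfg1 (0.817). Timp1 and Timp2 ran in opposite directions, with an r of -0.574. These libraries share sequences of stimuli, so the coefficients describe this design and carry no test.

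**Figure D5:**
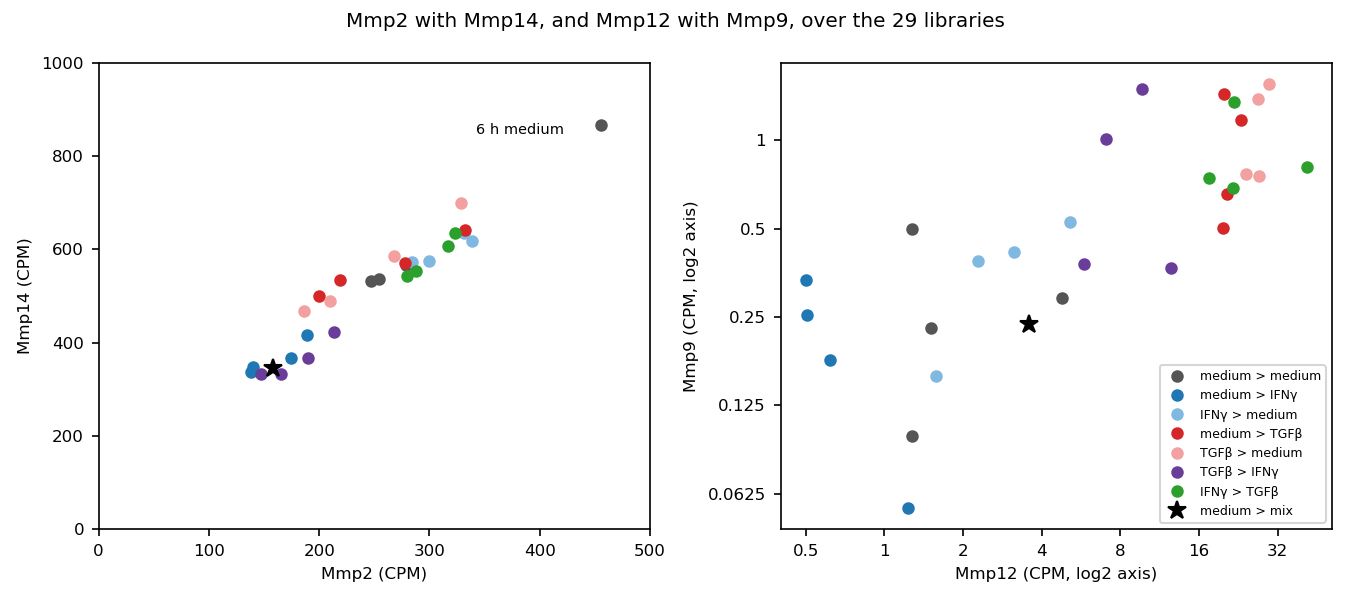
Left, Mmp14 against Mmp2, both in CPM. Right, Mmp9 against Mmp12, in CPM on log2 axes. Each point is 1 of the 29 libraries, coloured by sequence, with a star for the mix; Mmp2 and Mmp14 lie along 1 line from IFNγ-ended libraries at the lower left to the 6 h medium library at 456 and 866 CPM.

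The other members of the family were mostly scarce. Of 18 further genes listed (17 Mmp genes and Timp4), 15 had a row and 7 were tested. With TGFβ second, 1 was called higher and 3 lower, at a median of -0.11 against -0.0014 for all genes, of which 11.7% were called higher and 11.6% lower. Mmp10 (stromelysin-2), a cluster neighbour of Mmp3, rose by 0.42 ± 0.14 (edgeR adjusted p = 0.0394), from 70.7 ± 19.7 to 94.3 ± 10.2 CPM. That call lay near the threshold and was not checked without the 6 h medium library. Mmp1a, a collagenase gene of the same cluster, fell by 1.09 (SE 0.15, adjusted p = 2.21e-05), from 5.06 ± 0.73 to 2.38 ± 0.22 CPM. Mmp28 and Mmp19 fell by 0.86 and 0.80. Neighbours in the chromosome 9 cluster were thus called higher (Mmp12 and, with this limit, Mmp10), called lower (Mmp1a) or not called (Mmp3, Mmp13, Mmp1b) under the same stimulus. With IFNγ second, Mmp11 (stromelysin-3) fell by 1.21 (SE 0.15, adjusted p = 1.54e-06), Mmp19 by 1.09 and Mmp28 by 0.79, at a list median of 0.15, where 43.8% of all genes were called.

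Genes of plasminogen activation, a protease system that can activate metalloproteinase precursors, were called with both cytokines. Of 8 tested genes, 3 were higher and 1 lower with TGFβ second (median 0.14), at a background of 23.3% of genes called. The urokinase receptor gene Plaur rose by 0.81 ± 0.18 (edgeR adjusted p = 0.0017) and the urokinase gene Plau by 0.72 ± 0.16 (0.00275). With IFNγ second, 4 were higher and 1 lower (median 0.52, against -0.0096 for all genes), at a background of 43.8%. Plaur rose by 1.13 ± 0.18 (1.83e-05), and the inhibitor gene Serpine2 fell from 260 ± 103 to 89.0 ± 6.80 CPM (3.90e-07). Serpinb2 rose by 3.31 ± 0.39 from 0.189 to 1.97 CPM, a size that rests on few counts in medium.

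Among 12 tested genes for activation and surface control of metalloproteinases, 4 were higher and 2 lower with TGFβ second (median 0.16), and 1 higher and 5 lower with IFNγ second (median -0.33). The shares of all genes called were 23.3% with TGFβ and 43.8% with IFNγ. With TGFβ, Tfpi2, a protease inhibitor, rose by 3.61 ± 0.31 (edgeR adjusted p = 3.24e-08), from 0.557 to 6.85 CPM, and the integrin gene Itgb3 rose by 1.02 ± 0.07 (8.92e-10). Thbs2, a matrix glycoprotein gene, fell by 1.27 (SE 0.18, 2.39e-05), from 2011 ± 1011 to 800 ± 138 CPM. The medium libraries spread widely, and the size of this fall was not checked without the 6 h medium library. With IFNγ, Reck, a scarce membrane-anchored inhibitor of metalloproteinases, fell by 0.79 (SE 0.21, 0.00376), from 1.92 to 1.12 CPM. Lrp1, a receptor that clears proteases, fell by 0.79 (SE 0.15, 0.000135), from 716 to 412 CPM. Of 14 ADAM and ADAMTS genes, relatives that shed surface proteins or cut proteoglycans, 3 were higher and 5 lower with TGFβ second and 5 higher and 2 lower with IFNγ second, against the same shares of all genes. Adam12 rose with TGFβ by 4.25 ± 0.56 (1.23e-05), from 0.0551 to 1.08 CPM. Its medium level was near 0, so the size of this change rests on very few counts. Adam12 passed the filter through libraries outside medium. Adamts1 rose with IFNγ by 0.96 ± 0.12 (9.48e-07), while Adamts10 fell by 1.36 (SE 0.18, 3.40e-06).

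Some transcripts of the AP-1 and ETS factors, whose AP-1 members recognise the motif printed above, were called with each cytokine. With TGFβ they were called about as often as genes at large. Of 14 tested genes, 5 were higher and 6 lower with IFNγ second, where 43.8% of all genes were called, and 1 was higher and 2 lower with TGFβ second, where 23.3% were. With IFNγ, Jun rose by 1.37 ± 0.13 (edgeR adjusted p = 3.03e-08), from 242 ± 76.2 to 610 ± 57.3 CPM, and Fosl1 rose by 0.98 ± 0.10 (1.68e-07). With TGFβ, Junb rose by 0.28 ± 0.07 (0.00479) and Jund fell by 0.41 (SE 0.10, 0.00344).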

How the data were processed

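The deposited values are raw read counts, whole numbers for each Ensembl gene and library, in 1 table. The submitters' processing notes list HISAT and GRCm38. How reads were counted, with which annotation and strand setting, is not given in the sources used here. Per the labels' protocols, RNA with an integrity number over 8 went into stranded mRNA libraries. Columns were matched to samples by name, with 0 left over, and no 2 libraries of 1 sequence agreed within sampling noise. Genes were filtered in R 4.3.3 with filterByExpr (min.count 10, by group), which left 14935 genes, scaled by TMM and fitted with edgeR 4.0.16 (glmQLFit, glmQLFTest) on all 29 libraries, with a term per sequence and a factor for duration (18 residual degrees of freedom). Trends used an intercept and a slope on log2 hours per sequence (14 degrees of freedom). The fit was tested on simulated data. The smallest group behind the filter, the mix, has 1 library, so a gene could pass it on few libraries. SE is the fold change over the root of F, with a prior count of 2 behind log2 CPM.

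Libraries of the same duration deviated together, at correlations from 0.106 to 0.499, in the comparisons of TGFβ or medium before IFNγ, IFNγ or medium before TGFβ, IFNγ or medium after TGFβ, TGFβ or medium after IFNγ, and TGFβ withdrawn or present. In the other comparisons at least 1 duration was at or below 0.1, and the duration pairs the libraries there only by number. The genes and lists were chosen with earlier results of these data known. All 9 genes are named; of other lists, at most the 4 called genes with the largest change per comparison, and the 3 genes of highest correlation for each gene; a few items that this rule names are not reported here. Alternatives were DESeq2 1.42.0, RLE factors, no filter, no duration factor, a fit on the compared sequences alone, and leaving out 1 duration or 1 library. Exon lengths come from GENCODE M21, promoter windows from RefSeq. Intervals cover the spread between libraries that the duration factor leaves.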

Additional observations from a re-analysis of the deposited data

Results flagged for a closer look

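Of 63 sets of 4 libraries (9 genes in 7 sequences), 6 held a library far from the other 3, by the ratio of its gap to the whole range (Dixon's test at 95%); chance gives about 1 in 20. The 6 h medium library gave 3 of them. Mmp12 was at 4.80 CPM against 1.27 to 1.51, Mmp2 at 456 CPM against 247 to 279, and Mmp14 at 866 CPM against 532 to 566. After medium then IFNγ, Mmp12 was at 1.23 CPM in the 6 h library against 0.500 to 0.622 in the others. After IFNγ then medium, Mmp3 was at 1097 CPM in the 2 h library against 763 to 807, and Mmp13 at 2.22 CPM in the 6 h library against 3.49 to 3.59.

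The mix library, which enters no comparison, was above every medium library in Timp1 (454 CPM against at most 142) and in Timp3 (5.10 CPM against at most 4.04). It is 1 library and has no replicate check.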

How the results depend on the processing

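Counts of called genes among the 9 kept within 1.5 times the reported count in most alternatives. With only the compared sequences in the fit, TGFβ second against medium gave 1 in place of 3 (Timp1 missed the threshold, and Mmp9 was not tested there because it did not pass the filter on low counts) and IFNγ first against medium 0 in place of 1. IFNγ first against medium also gave 0 without the duration factor, the one count that leaving out this block moved by over 1.5 times; the other calls that it changed are given beside their results. Over the fits that leave out a duration or a library, the count ran from 0 to 1 for IFNγ first against medium, from 3 to 5 for TGFβ before IFNγ, from 0 to 1 for IFNγ before TGFβ, and from 0 to 1 for the interaction of IFNγ with preceding TGFβ. IFNγ before TGFβ gave 1 with no filter on low counts and 1 with DESeq2, and the slope after TGFβ then IFNγ gave 1 with DESeq2. Of 153 changes of single genes, 22 had at least 1 alternative that changed the call, with 64 values losing it and 34 gaining it among 2380, and 0 called values changed sign. The rise of Mmp12 with TGFβ and the fall of Mmp3 and Mmp14 with IFNγ second, after medium or TGFβ, were called in all alternatives run. Depth limits Mmp9, at 1 to 28 counts per library, and Mmp12 after IFNγ.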
